A study of Mus musculus with 12 samples.

Results

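The potassium channel genes of the auditory nerve were followed after ouabain, and a gene was counted as a member if the array annotation gave exactly 1 symbol starting with Kcn. This rule returned 167 probe sets for 84 genes, of 18193 genes with a probe set of their own and 45037 probe sets tested. A probe set is the group of short probes that reports 1 transcript on the array. The probe set with the highest mean over the 12 arrays stood for a gene, and the 46 genes with more than 1 probe set were also read on the others. The rule used no difference between groups.

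RNA came from the central core of the cochlea (modiolus), which carries the auditory nerve and was freed of the bony shell and the lateral wall. CBA/CaJ mice of both sexes, 8 to 12 weeks old, received ouabain (3 mM, about 10 µl, renewed over 60 min) at the round window of the right ear, a treatment used to kill the type I spiral ganglion neurons. The left ear was not operated and served as the control, so that surgery and the drug cannot be told apart. Apart from anesthesia the labels name no other agent and no altered gene in these mice. The paper states that buprenorphine was given before surgery. It also states that treated mice with too small a shift of hearing threshold were excluded. Groups were taken at 3 and 7 days, with 3 Affymetrix arrays for each of control and ouabain at each day, each array holding RNA pooled from 2 preparations. The animals behind each pool were not named, so p-values describe the spread between pools. The sample codes carry the same numbers on left and right ears, so arrays of equal number may come from the same mice, which the sources used here do not state, and a fit with the number as a block is given where it changes a call. The controls of the days were separate groups. Values are log2 expression after robust multi-array averaging (RMA), in which a difference of 1 is a 2-fold change. A gene is called higher or lower where limma's p, after Benjamini-Hochberg adjustment across the whole table, was under 0.05 and the fold change passed 1.5.

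Potassium channels let potassium leave the cell and so set the resting potential and end the action potential. Voltage-gated subunits assemble as tetramers, with auxiliary subunits that change their gating and traffic. Inward rectifiers and 2-pore channels hold the resting potential and clear potassium through glia and epithelia, and calcium- or sodium-activated channels follow the activity of the cell. In the spiral ganglion, Kcna and Kcnc channels keep firing brief and precisely timed, and Kcnj10 is carried by the satellite glia around the neurons.

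The arrays were alike in scale, with medians between 6.01 and 6.09 and lower quartiles between 4.26 and 4.38. Array replicate 1 of the ouabain group kept higher neuronal values than the other ouabain arrays at both days, and control replicate 1 at 7 days stood apart by higher cell cycle and erythroid markers. Of 15 markers of spiral ganglion neurons, 14 were lower at each day, and their summed level, as log2 of the sum, lay between 15.92 and 16.13 in the control arrays, between 13.35 and 14.67 in the ouabain arrays at 3 days and between 12.53 and 13.82 at 7 days. Of 6 measured markers of myelinating Schwann cells 2 and 3 were lower at 3 and 7 days, with summed levels of 15.53 to 15.62 in the controls and 14.98 to 15.24 after ouabain. Of 10 markers of repair or immature Schwann cells 8 were higher and 1 was lower at each day, and of 12 macrophage and microglia markers 12 and 11 were higher. Of 9 cell cycle markers all were higher at 3 days and none was called at 7 days. No hair cell marker of 9 was called, and of 12 lateral wall markers 1 (Met) was higher at both days. The labelled tissue carried its defining neuronal and myelin markers. The lateral wall list was also well measured, with medians of 10.96 to 11.33 in the control arrays.

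Potassium channel genes fell more often than they rose. At 3 days 19 of 84 were lower, where 8.06% of all genes were lower, and 5 were higher, where 7.51% of all genes were higher. At 7 days 17 were lower against 8.2% of all genes, and 7 were higher against 7.57%. Leaving out 1 array lowered the higher members to 3 at 3 days (without ouabain replicate 3 of that day) and to 4 at 7 days (without control replicate 1 of that day). Lower at both days were 16 members (19% of the 84, where 6.4% of all genes were lower at both days), and higher at both days were 4 (4.76%, where the share of all genes was 4.16%). No gene was called in opposite directions, and 56 members were called at neither day. The median log2 fold change of the members was -0.13 at 3 days and -0.18 at 7 days, beside 0.01 and 0.03 over all genes. In these bulk samples fewer cells of a type and less RNA per cell cannot be told apart, and the part of the lower neuronal markers in these counts was not tested. Without ouabain replicate 1 of both days, 20 members were lower and 4 higher at 3 days, and 18 were lower and 5 higher at 7 days.

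The groups of called members did not overlap in any case. The same share over all called genes was not counted, so nothing beyond the calls is read from this. Over all members, the ouabain arrays lay wholly below the control arrays in 26 genes at 3 days and 28 at 7 days, where 21.2% and 20.6% of all genes did so. They lay wholly above in 10 and 12 genes, where 22.4% and 25.6% of all genes did so. Of the 84 genes, 51 passed a log2 value of 6 on at least 3 arrays, as did 12752 of all 18193 genes. The 33 others did not, and so lay under the array medians of 6.01 to 6.09 on most arrays.

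**Figure D1:**
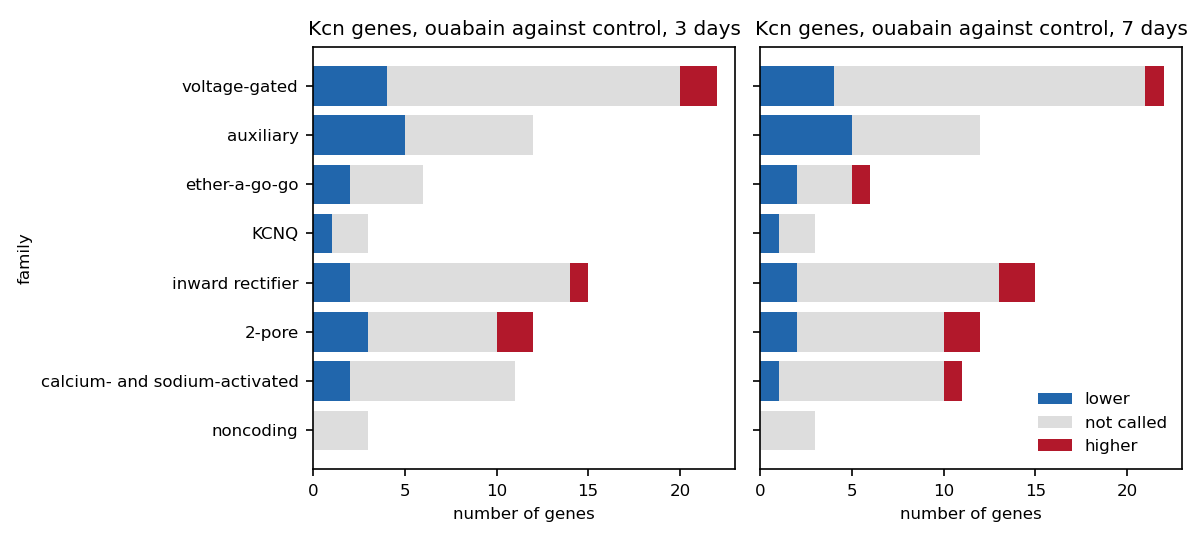
Number of Kcn genes (horizontal axis) called lower, called higher or not called after ouabain in each of 8 families (vertical axis), at 3 days on the left and 7 days on the right. Auxiliary subunits had 5 lower and 0 higher genes of 12 at each day. Inward rectifiers had 2 lower and 1 higher of 15 at 3 days, and 2 and 2 at 7 days. The 2-pore channels had 3 lower and 2 higher of 12 at 3 days, and 2 and 2 at 7 days.

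Among the 22 voltage-gated alpha subunits, Kcna2, Kcnc1, Kcns1 and Kcns3 were lower at both days and Kcna6 was higher at both days. Kcna1 encodes Kv1.1, a channel of the low-threshold current that sits beside the nodes of myelinated axons. Kcna1 read 12.86, 12.88 and 12.90 in the control arrays and 12.80, 12.75 and 12.71 in the ouabain arrays at 3 days, and 12.83, 12.79 and 12.69 against 12.37, 12.45 and 12.70 at 7 days. The ouabain arrays lay just below the controls at 3 days, and the groups overlapped at 7 days. The log2 fold changes of Kcna1 were -0.12 and -0.26 (SE 0.09, limma, adjusted p = 0.409 and 0.0535), and it was not called on any of its 4 probe sets at either day.

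Kcna2 encodes Kv1.2, which combines with Kv1.1 at the same axonal sites. Its values were 11.59, 11.68 and 11.42 in the control arrays at 3 days and 10.10, 9.34 and 9.30 after ouabain, then 11.61, 11.30 and 11.29 in the controls and 9.37, 8.79 and 9.34 after ouabain at 7 days. All ouabain arrays were well below all control arrays, and replicate 1 at 3 days was the nearest to the controls. Kcna2 fell, with log2 fold changes of -1.98 and -2.24 (SE 0.21, limma, adjusted p = 3.07e-05 and 1.26e-05), or to levels 3.96-fold and 4.71-fold lower, and the changes were -2.24 and -2.34 without ouabain replicate 1. Of its 4 probe sets 3 were lower at both days, and the other changed by 0.03 and -0.07.

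Kcnc1 encodes Kv3.1, which lets auditory neurons repolarise fast enough to fire at high rates. In the controls Kcnc1 stood at 11.83, 11.84 and 11.91 at 3 days and at 12.09, 11.89 and 11.84 at 7 days. After ouabain the arrays read 8.98, 7.95 and 7.65 at 3 days and 8.38, 7.48 and 5.60 at 7 days. The ouabain arrays were all lower and far more spread than the controls, with replicate 3 at 7 days the lowest. This was a log2 fold change of -3.66 and -4.79 at the earlier and later day (SE 0.53, limma, adjusted p = 0.000306 and 4.19e-05), and -4.06 and -5.40 without ouabain replicate 1. Of its 4 probe sets 3 were lower.

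The largest difference of an uncalled member, Kcnc2 (Kv3.2, chosen after its values were seen), was -1.70 and -2.32 with an SE of 1.05. Its control arrays read 10.57, 10.67 and 8.59 at 3 days and 11.44, 8.30 and 9.57 at 7 days, and its ouabain arrays 10.26, 6.57 and 7.91 and 9.26, 6.49 and 6.59. The groups overlapped at both days and were not called (limma, adjusted p = 0.316 and 0.136). Between arrays of equal number the ouabain array was the lower one in all 6, with differences of -0.31, -4.10 and -0.68 at 3 days and of -2.18, -1.81 and -2.98 at 7 days. With the number as a block the 7-day difference was called (SE 0.65, limma, adjusted p = 0.0332).

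Kcns1 and Kcns3 encode Kv9 subunits, which form no channel alone and modify Kv2 channels. Kcns1 read 7.63, 7.91 and 7.75 in the controls and 6.33, 5.71 and 5.87 after ouabain at 3 days, and 7.95, 7.59 and 7.43 against 6.18, 5.95 and 5.62 at 7 days. The groups were separate at both days, with log2 fold changes of -1.79 and -1.74 (SE 0.19, limma, adjusted p = 2.63e-05 and 3.25e-05). Kcns3 changed by -1.14 and -0.99 on the log2 scale (SE 0.11), and both of its probe sets were lower.

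Kcna6, which encodes Kv1.6, rose more than any other member. Its controls read 6.29, 6.47 and 6.48 at 3 days and 6.84, 6.47 and 6.71 at 7 days, and its ouabain arrays 8.77, 8.90 and 9.11 and 8.93, 8.98 and 9.32. Every ouabain array was above every control array by a wide margin, and the replicates of a group were close to each other. The rise was 2.51 and 2.41 on the log2 scale (SE 0.13, limma, adjusted p = 2.42e-07 and 3.23e-07), or 5.71-fold and 5.31-fold, and 2.59 and 2.48 without ouabain replicate 1.

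The 3 probe sets of Kcna6 did not move together. The probe set with the lowest mean was called higher by 1.16 and 1.56, in the direction of the one used. The remaining probe set was called lower (-1.28 and -1.77), from 6.43, 6.13 and 6.39 to 5.26, 4.79 and 5.08 at 3 days and from 6.66, 6.42 and 6.19 to 4.79, 4.36 and 4.80 at 7 days. Which transcripts these probe sets report was not analysed here, and with the mean over its probe sets Kcna6 was higher by 0.80 and 0.73.

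Kcnf1 encodes a further silent subunit (Kv5.1) and was higher at 3 days, by 0.69 (SE 0.13, limma, adjusted p = 0.0023), and not called at 7 days (-0.02). Without ouabain replicate 3 at 3 days the difference was 0.51, below the fold threshold. Its other probe set was called higher at both days, by 1.55 and 0.65. The remaining voltage-gated members, from the Kcna, Kcnc, Kcnd, Kcng, Kcns and Kcnv groups, were not called, with log2 fold changes between -1.70 and 0.35 at 3 days and between -2.32 and 0.36 at 7 days.

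**Figure D2:**
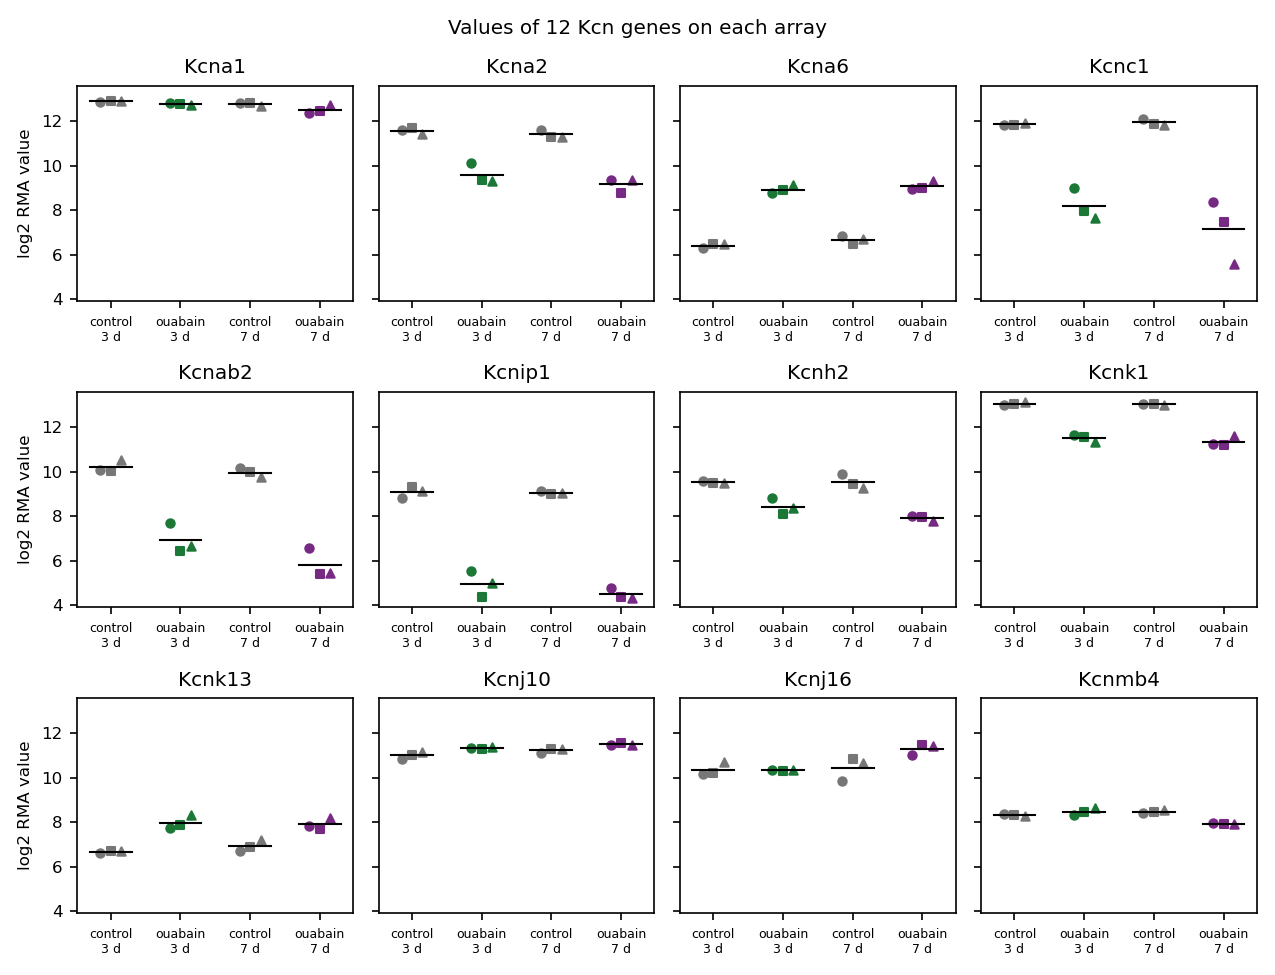
Log2 RMA value (vertical axis) of 12 Kcn genes on each of the 12 arrays, with circles, squares and triangles for replicates 1, 2 and 3 and a line at the mean of each group. Kcna2, Kcnc1, Kcnab2, Kcnip1, Kcnh2 and Kcnk1 lay lower after ouabain at both days, Kcna6 and Kcnk13 lay higher, and Kcna1 lay between 12.37 and 12.90 on all arrays.

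The auxiliary subunits were lower in 5 of 12 members at each day and higher in none. The cytoplasmic beta subunits (Kcnab) bind Kv1 channels and aid their transport to the axon. Kcnab2 read 10.10, 10.01 and 10.54 in the control arrays and 7.68, 6.42 and 6.66 in the ouabain arrays at 3 days, and 10.14, 10.00 and 9.74 against 6.59, 5.40 and 5.48 at 7 days. There was no overlap, and replicate 1 was the highest of the ouabain arrays at both days. Kcnab2 fell, with log2 fold changes of -3.30 and -4.14 (SE 0.34, limma, adjusted p = 2.52e-05 and 4.78e-06), and of -3.68 and -4.52 without ouabain replicate 1.

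Both probe sets of Kcnab2 and both of Kcnab3 were lower at both days, and Kcnab3 changed by -1.43 and -1.33 (SE 0.12, limma, adjusted p = 6.84e-06 and 1.13e-05). Kcnab1, the third beta subunit, read 9.00, 9.37 and 8.94 in the controls and 9.00, 8.90 and 8.67 after ouabain at 3 days, and 9.07, 9.17 and 9.31 against 8.75, 8.88 and 9.22 at 7 days. Its groups overlapped at both days, with differences of -0.25 and -0.23 (SE 0.15, limma, adjusted p = 0.292 and 0.295).

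The Kcnip genes encode calcium-binding proteins (KChIPs) that carry Kv4 channels to the membrane and slow their inactivation. Kcnip1 had the largest fall of all members at 3 days, from 8.83, 9.30 and 9.12 in the controls to 5.53, 4.36 and 4.99 after ouabain. At 7 days it went from 9.11, 8.99 and 9.05 to 4.78, 4.38 and 4.36. The ouabain arrays were all toward the dim end of the array, where RMA values understate differences. The log2 fold changes were -4.12 and -4.54 (SE 0.24, limma, adjusted p = 3.97e-07 and 2.3e-07), and 2 of its 4 probe sets were lower while the other two were not called.

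Kcnip4 read 8.91, 9.02 and 8.51 in the controls at 3 days and 7.95, 5.07 and 6.12 after ouabain, and 8.93, 7.88 and 8.78 against 6.17, 5.45 and 4.87 at 7 days. Its ouabain arrays were apart from the controls although widely spread, with replicate 1 the highest at 3 days. The differences were -2.44 and -3.04 (SE 0.58, limma, adjusted p = 0.0082 and 0.0021), and -3.22 and -3.37 without ouabain replicate 1. All 3 of its probe sets were lower at both days.

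Kcnip2 read 8.26, 8.14 and 8.46 in the controls and 7.12, 6.84 and 6.61 after ouabain at 3 days, and 8.33, 8.25 and 8.04 against 6.63, 5.22 and 6.19 at 7 days. The groups were apart at both days, by -1.43 and -2.19 (SE 0.28, limma, adjusted p = 0.0022 and 0.000103). At 7 days the ouabain arrays were more spread than the controls (SD 0.73 and 0.15), and the call was lost with either t-test on adjusted p. Of its 3 probe sets 1 was lower at 3 days and 2 at 7 days. Kcnip3 lay below the controls on every ouabain array at both days and was not called (-0.36 and -0.36, SE 0.13, limma, adjusted p = 0.0579 and 0.0553). The Kv4 alpha subunits these proteins bind, Kcnd1, Kcnd2 and Kcnd3, were not called on the probe set used, and 1 of 3 probe sets of Kcnd1 was lower at 3 days.

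Kcne1 encodes the small partner of Kcnq1 in the stria vascularis, where both secrete potassium into the endolymph. It read 6.07, 5.61 and 5.69 in the controls and 7.14, 6.08 and 4.79 after ouabain at 3 days, and 6.89, 4.70 and 7.08 against 5.09, 5.20 and 5.50 at 7 days. The groups overlapped and varied widely, with differences of 0.21 and -0.96 (SE 0.61, limma, adjusted p = 0.871 and 0.294). Without control replicate 2 at 7 days the difference at 7 days was -1.72 and was called (limma, adjusted p = 0.0274). Dct and Tyr, pigment cell genes of the stria vascularis, varied beside it. Dct read 8.00, 7.96 and 7.49 against 10.61, 9.64 and 5.34 at 3 days and 10.78, 5.40 and 10.35 against 7.26, 6.80 and 7.00 at 7 days. Tyr read 4.86, 4.83 and 4.80 against 7.37, 5.83 and 3.79 at 3 days and 6.95, 4.21 and 6.26 against 4.62, 4.16 and 4.23 at 7 days. Control replicate 2 of 7 days was the lowest control for Kcne1, Dct and Tyr, and ouabain replicate 3 of 3 days was the lowest of its group. The rest of the lateral wall list was split on that control array. Met, Cldn11 and Slc12a2 were also lowest there among the 7-day controls, and Gjb6 lay between. Slc26a4 (11.14, 11.75 and 11.50), Gjb2 (12.33, 12.58 and 12.56), Otos, Esrrb and Atp6v0a4 were highest there, and Coch was tied for highest. The part of stria tissue in the values of Kcne1 was not tested. The other Kcne genes were not called.

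Promoters are shown for 4 members whose RefSeq start lies at the outer end of the gene, among them 3 lower genes and 1 higher gene, so that the 250 bases printed are upstream of the annotated gene. They are from RefSeq on GRCm38.p6, written 5′ to 3′ on the strand of the gene, with the GC box letters GGGCGG in capitals, as read on either strand. Kcnab2 lies at chr4:152477550-152477799 (minus strand), Kcns1 at chr2:164171114-164171363 (minus strand), Kcnh5 at chr12:75177333-75177582 (minus strand) and Kcnj15 at chr16:95257308-95257557 (plus strand).
Kcnab2: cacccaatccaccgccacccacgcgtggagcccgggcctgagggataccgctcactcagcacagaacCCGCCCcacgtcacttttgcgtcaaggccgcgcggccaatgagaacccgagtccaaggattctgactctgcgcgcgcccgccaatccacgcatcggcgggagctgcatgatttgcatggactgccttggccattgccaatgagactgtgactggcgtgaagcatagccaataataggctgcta
Kcns1: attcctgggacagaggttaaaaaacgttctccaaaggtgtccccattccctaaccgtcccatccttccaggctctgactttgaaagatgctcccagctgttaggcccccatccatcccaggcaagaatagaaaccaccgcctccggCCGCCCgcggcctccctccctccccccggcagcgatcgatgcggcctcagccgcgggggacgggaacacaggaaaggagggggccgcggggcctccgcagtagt
Kcnh5: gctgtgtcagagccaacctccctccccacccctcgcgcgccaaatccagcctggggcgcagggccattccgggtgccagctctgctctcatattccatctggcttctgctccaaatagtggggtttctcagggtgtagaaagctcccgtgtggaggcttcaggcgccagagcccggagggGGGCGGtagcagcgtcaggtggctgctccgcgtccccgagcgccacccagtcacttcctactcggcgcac
Kcnj15: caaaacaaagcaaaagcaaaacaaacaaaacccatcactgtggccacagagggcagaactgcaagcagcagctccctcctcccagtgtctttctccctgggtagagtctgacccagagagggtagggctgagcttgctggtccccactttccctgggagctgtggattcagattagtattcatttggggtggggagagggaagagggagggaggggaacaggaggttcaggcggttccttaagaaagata

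The GC box stood in the first 3 of these promoters and not in that of Kcnj15. Kcnj15 is the single higher gene printed, and its calls at both days were lost without some single arrays. Of the 84 members 64 had a promoter in the table, and GGGCGG was found on either strand in 32 of them (50%), where 33% of all 27025 promoters held it. Among the 13 genes that were lower at both days and had a promoter, 8 held it, and among the 3 higher ones none did. The promoters of the 13 lower genes had a median of 14 CpG dinucleotides in 250 bases, those of all 64 members 8, and all 27025 promoters 6. These 27025 are RefSeq promoters and are not limited to the 18193 genes read on the array. Unlike the printed promoters, many of these windows lay in part or wholly within the annotated gene. The start used lay 155 to 239463 bases inside the gene for Kcna2, Kcnc1, Kcnh2, Kcnip1, Kcnip2, Kcnip4, Kcnk1, Kcnmb2 and Kcns3. Among the higher genes it lay 1350 bases inside for Kcnk13 and 160 for Kcna6. The TATA box letters, TATAAA, stood in 3.12% of members and 13% of all promoters. Both parts of the element bound by the neuronal repressor REST were searched in the same windows. GGACAGC was in 12.5% of members and 5.28% of all promoters, and TCAGCACC in 0 of 64 members and 1.27% of all. These 4 motifs were searched on both strands and share no letters that would make 1 match count as another. The matches describe letters, not sites in use.

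Ether-a-go-go channels (Kcnh) are voltage-gated channels of a separate branch that open slowly or recover slowly from inactivation. Of 6 members Kcnh2 and Kcnh5 were lower at both days and Kcnh8 was higher at 7 days. Kcnh2 (ERG1) read 9.57, 9.50 and 9.50 in the controls and 8.83, 8.12 and 8.36 after ouabain at 3 days, and 9.88, 9.46 and 9.29 against 8.02, 7.98 and 7.77 at 7 days. The groups were apart at both days, by -1.09 and -1.62 (SE 0.18, limma, adjusted p = 0.000659 and 3.5e-05).

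Kcnh5 (EAG2), whose promoter is printed above, read 5.59, 5.71 and 5.05 in the controls and 4.13, 3.89 and 3.47 after ouabain at 3 days. At 7 days the arrays read 5.51, 5.01 and 4.96 and 3.59, 3.68 and 3.53. The groups did not overlap, although all values were dim, and the difference was -1.62 and -1.56 (SE 0.20, limma, adjusted p = 0.000103 and 0.000143). Kcnh8 (ELK3) read 5.83, 5.70 and 5.67 against 6.30, 5.56 and 5.79 at 3 days and 5.38, 5.83 and 5.67 against 6.22, 6.31 and 6.23 at 7 days. It overlapped at 3 days (0.15) and was apart at 7 days (0.63, SE 0.17, limma, adjusted p = 0.0145), a call that did not hold (0.51, adjusted p = 0.0681) once control replicate 1 at 7 days was left out.

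Among the 3 KCNQ members, Kcnq3 and Kcnq5 take part in the M current, which damps repeated firing. Kcnq3 read 9.39, 9.20 and 9.13 in the controls and 8.46, 7.64 and 7.85 after ouabain at 3 days, and 9.31, 8.92 and 8.88 against 8.33, 8.06 and 8.13 at 7 days. Its groups were apart at both days, by -1.26 and -0.87 (SE 0.19, limma, adjusted p = 0.00036 and 0.0048), on 1 of its 2 probe sets. The 7-day call of Kcnq3 was lost with the mean over both probe sets. Kcnq1 read 6.93, 6.74 and 6.92 against 7.38, 7.20 and 6.46 at 3 days and 7.56, 6.41 and 7.36 against 6.83, 7.26 and 6.66 at 7 days. The groups of Kcnq1 overlapped at both days (0.15 and -0.19, SE 0.29, limma, adjusted p = 0.801 and 0.704), and Kcnq5 was not called, with an SE of 1.01.

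Of 15 inward rectifiers (Kcnj) 2 were lower and 1 was higher at 3 days, and 2 were lower and 2 higher at 7 days. Over all genes 8.06% were lower and 7.51% higher at 3 days, and 8.2% and 7.57% at 7 days. Counts this small do not set the family apart from all genes. Kcnj10 encodes Kir4.1, the potassium-clearing channel of satellite glia and of the intermediate cells of the stria vascularis. It read 10.86, 11.02 and 11.13 in the controls and 11.35, 11.29 and 11.36 after ouabain at 3 days, and 11.13, 11.27 and 11.29 against 11.48, 11.56 and 11.48 at 7 days. Every ouabain array was above the controls of its day, yet the rise of 0.33 and 0.28 (SE 0.09, limma, adjusted p = 0.0145 and 0.0333) stayed under the fold threshold of 1.5. Among 10 central glia markers 4 rose at 3 days and 3 at 7 days, and summed levels were 12.45 to 13.36 in the controls and 13.12 to 13.79 after ouabain, and their part in the value of Kcnj10 was not tested.

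Kcnj16 encodes Kir5.1, which pairs with Kir4.1. Its arrays read 10.18, 10.19 and 10.72 against 10.34, 10.30 and 10.34 at 3 days and 9.84, 10.83 and 10.64 against 11.00, 11.47 and 11.43 at 7 days. The groups overlapped at 3 days (-0.04) and were apart at 7 days (0.86, SE 0.23, limma, adjusted p = 0.0165), with control replicate 1 the lowest. Both of its probe sets were higher at 7 days. The call was lost without control replicate 1 of 7 days (0.56, adjusted p = 0.0505), without ouabain replicate 2 (0.77, adjusted p = 0.0591) and without ouabain replicate 3 (0.80, adjusted p = 0.0518).

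Kcnj15 (Kir4.2) read 6.89, 7.23 and 7.05 in the controls and 7.70, 7.84 and 7.50 after ouabain at 3 days, and 6.67, 7.50 and 7.51 against 8.19, 7.74 and 8.17 at 7 days. The groups were narrowly apart, by 0.63 and 0.81 (SE 0.21, limma, adjusted p = 0.0495 and 0.0138), on 1 of its 3 probe sets. With the mean over its probe sets Kcnj15 was called at neither day. The 3-day call was lost without any single array of that day and without ouabain replicates 1 or 3 of 7 days, with adjusted p between 0.0578 and 0.158 and differences of 0.54 to 0.72, and with the replicate number as a block (adjusted p = 0.0712). The 7-day call was lost without control replicate 1 (0.53) or ouabain replicate 1 (0.73) of that day.

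Kcnj14 (Kir2.4) and Kcnj12 (Kir2.2) belong to the strongly rectifying channels. Kcnj14 read 5.98, 6.37 and 6.13 in the controls and 4.77, 4.51 and 4.16 after ouabain at 3 days, and 6.21, 6.08 and 6.16 against 4.05, 4.02 and 4.11 at 7 days. There was no overlap, with differences of -1.68 and -2.09 (SE 0.14, limma, adjusted p = 5.44e-06 and 1.23e-06). Kcnj12 read 5.95, 5.93 and 5.77 against 5.42, 5.17 and 5.49 at 3 days and 6.12, 6.11 and 6.04 against 5.44, 5.20 and 5.36 at 7 days. It was apart at both days and was called at 7 days (-0.75, limma, adjusted p = 0.000174) but not at 3 days (-0.53, SE 0.10), where it was called without ouabain replicate 3 (-0.59).

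Kcnj13 (Kir7.1), a channel of transporting epithelia, was lower at 3 days (-0.59, SE 0.12, limma, adjusted p = 0.0032) and not called at 7 days (-0.03). The call was lost without control replicate 1 (-0.57) or ouabain replicate 2 (-0.48) of 3 days. Kcnj8 (Kir6.1), carried by pericytes, read 7.71, 7.73 and 7.40 against 7.71, 7.80 and 7.63 at 3 days and 7.70, 7.86 and 7.82 against 8.37, 8.22 and 8.31 at 7 days. Its groups overlapped at 3 days (0.10) and were apart at 7 days, where the rise of 0.51 (SE 0.10, limma, adjusted p = 0.0027) was just short of the fold threshold. Of 10 pericyte and smooth muscle markers 1 was lower at 3 days and 2 were higher at 7 days. Of all genes 8.06% were lower at 3 days and 7.57% higher at 7 days. Summed levels of the markers were 13.41 to 13.58 in the controls and 13.51 to 13.60 after ouabain at 3 days. At 7 days they were 13.05 to 13.38 and 13.66 to 13.73. The part of these markers in the value of Kcnj8 was not tested. The other inward rectifiers, including the G protein-gated Kcnj3, Kcnj5, Kcnj6 and Kcnj9, were not called on the probe set used, while 1 of 4 probe sets of Kcnj9 was lower at both days and 1 of 4 of Kcnj3 at 7 days.

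**Figure D3:**
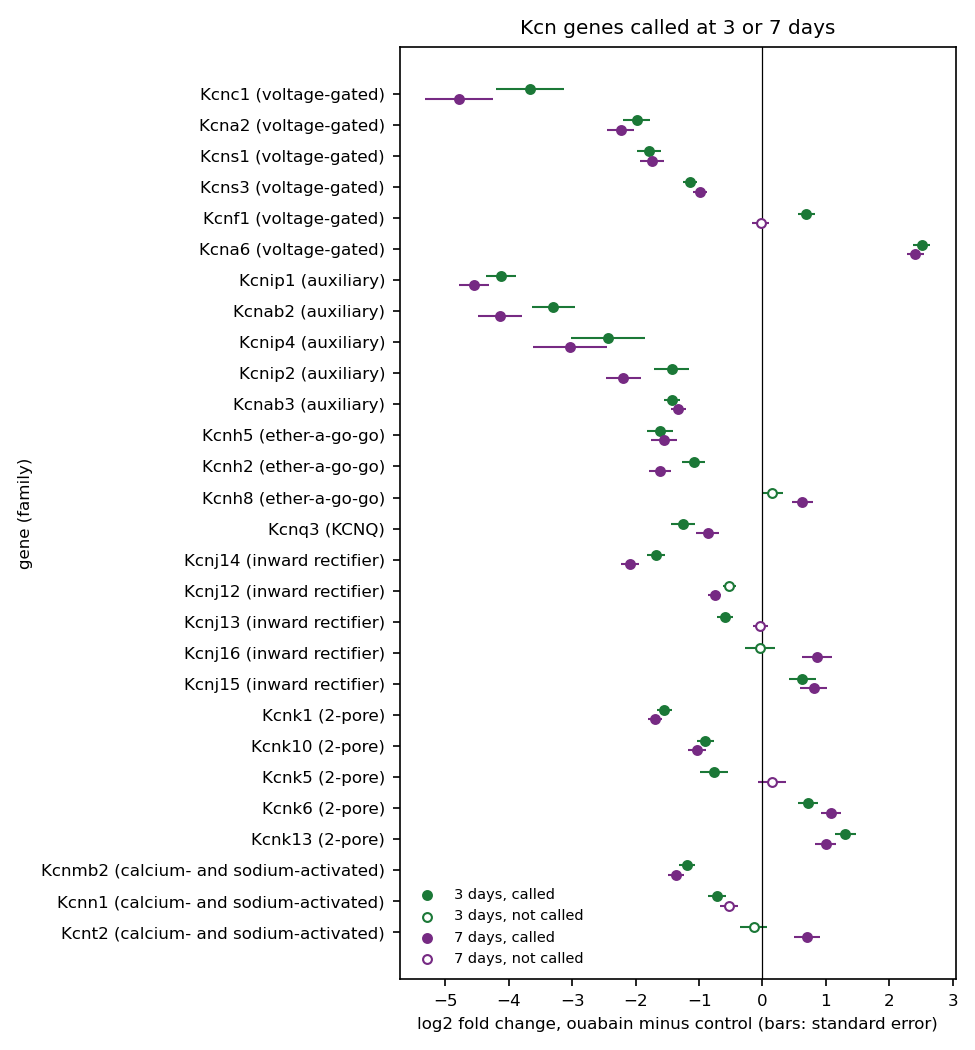
Log2 fold change of ouabain against control (horizontal axis, with the standard error as bars) at 3 days in green and 7 days in purple for the 28 Kcn genes called at either day, grouped by family (vertical axis), with filled points where called. Falls reached -4.79 for Kcnc1 at 7 days, and rises reached 2.51 for Kcna6 at 3 days.

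The 2-pore channels (Kcnk) are open at rest and carry the leak current. Of 12 members Kcnk1 and Kcnk10 were lower and Kcnk6 and Kcnk13 higher at both days. Kcnk1 (TWIK1) read 12.97, 13.04 and 13.13 in the controls and 11.64, 11.54 and 11.32 after ouabain at 3 days, and 13.04, 13.04 and 13.01 against 11.22, 11.19 and 11.60 at 7 days. The arrays of a group were tightly grouped and far apart from the other group, by -1.55 and -1.69 (SE 0.12, limma, adjusted p = 2.61e-06 and 1.44e-06), and both probe sets were lower. Kcnk10 (TREK2), a channel opened by stretch and lipids, read 5.25, 5.20 and 5.29 against 4.35, 4.35 and 4.34 at 3 days and 4.88, 5.40 and 5.53 against 4.17, 4.19 and 4.35 at 7 days. It was apart at both days although dim (-0.90 and -1.03, SE 0.14, limma, adjusted p = 0.000398 and 0.000152), and 1 of its 2 probe sets was lower. The 3-day call of Kcnk10 was lost with the mean over both probe sets.

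Kcnk13 encodes THIK1, a channel known from microglia. It read 6.64, 6.70 and 6.70 in the controls and 7.75, 7.89 and 8.32 after ouabain at 3 days, and 6.69, 6.89 and 7.19 against 7.85, 7.71 and 8.21 at 7 days. Every ouabain array was above every control array, by 1.31 and 0.995 (SE 0.17, limma, adjusted p = 0.000124 and 0.000974), on 1 of its 2 probe sets. The other probe set changed by 0.19 and -0.09. With the mean over both, Kcnk13 was higher by 0.75 and 0.45, and the 7-day call was lost. The 7-day call was also lost with either t-test on adjusted p. The summed level of the macrophage and microglia markers moved beside it, from 12.37 to 12.80 in the control arrays to 14.49 to 14.87 in the ouabain arrays, and their part in the rise of Kcnk13 was not tested.

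Kcnk6 (TWIK2) read 7.29, 7.46 and 7.23 in the controls and 7.77, 8.08 and 8.29 after ouabain at 3 days, and 7.43, 6.98 and 7.56 against 8.32, 8.34 and 8.55 at 7 days. The groups did not overlap, and the rise was 0.72 and 1.08 (SE 0.16, limma, adjusted p = 0.0054 and 0.000351). Kcnk5 (TASK2) was lower at 3 days (-0.76, SE 0.22, limma, adjusted p = 0.0258) and not called at 7 days (0.16). At 3 days 1 of its 2 probe sets was lower, the other changed by -0.20, and the mean over both was not called. The call of Kcnk5 was lost without control replicates 1 (-0.72) or 2 (-0.74) or ouabain replicates 1 (-0.69) or 2 (-0.77) of 3 days, with adjusted p of 0.0627 to 0.0805. The other 2-pore genes changed by -0.26 to 0.08 at 3 days and by -0.39 to 0.31 at 7 days, with Kcnk5 included at 7 days, and were not called.

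Of 11 calcium- and sodium-activated members 2 were lower at 3 days, and 1 was lower and 1 higher at 7 days. With the replicate number as a block Kcnn4, the intermediate-conductance channel, was called higher at 3 days (0.76, limma, adjusted p = 0.0439, and 0.0756 without the block). Kcnma1 encodes the pore of the BK channel. Its probe set with the highest mean read 7.38, 7.54 and 7.65 in the controls and 7.47, 7.23 and 6.87 after ouabain at 3 days, and 6.77, 6.94 and 7.33 against 7.37, 6.97 and 7.37 at 7 days. The groups overlapped and were not called (-0.33 and 0.22, SE 0.18, limma, adjusted p = 0.232 and 0.431).

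Other probe sets of Kcnma1 gave another answer. The probe set with the next highest mean went from 7.92, 7.78 and 7.92 to 6.52, 6.14 and 6.20 at 3 days and from 8.17, 7.72 and 7.54 to 6.38, 5.70 and 5.60 at 7 days, with no overlap. It was called lower, with differences of -1.59 and -1.92, and so was the probe set that followed it, with -1.44 and -1.35. The 2 dimmest of the 5 probe sets of Kcnma1 were not called.

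Kcnmb2 and Kcnmb4 encode beta subunits that set the calcium response and inactivation of the BK channel. Kcnmb2 read 8.80, 9.06 and 8.94 in the controls and 7.88, 7.68 and 7.67 after ouabain at 3 days, and 8.88, 8.72 and 8.70 against 7.28, 7.23 and 7.69 at 7 days. It was apart at both days, by -1.19 and -1.37 (SE 0.13, limma, adjusted p = 2.84e-05 and 1.03e-05), on both of its probe sets. Kcnmb4 read 8.39, 8.31 and 8.29 against 8.33, 8.48 and 8.64 at 3 days and 8.43, 8.46 and 8.55 against 7.95, 7.92 and 7.93 at 7 days. It overlapped at 3 days and lay below the controls on every array at 7 days, by a difference under the fold threshold (0.15 and -0.55, SE 0.09).

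Kcnn1 and Kcnn2 encode small-conductance channels (SK1 and SK2), which shape the pause after a spike. Kcnn1 read 6.15, 6.18 and 6.34 in the controls and 5.57, 5.20 and 5.75 after ouabain at 3 days, and 6.26, 5.97 and 6.12 against 5.46, 5.80 and 5.53 at 7 days. It lay below the controls at both days and was called at 3 days (-0.72, SE 0.14, limma, adjusted p = 0.0024) but not at 7 days (-0.52, adjusted p = 0.0168). The 3-day call was lost without ouabain replicate 2 (-0.56), and a 7-day call appeared without control replicate 2 (-0.59) or ouabain replicate 2 (-0.62). At 3 days 1 of the 2 probe sets of Kcnn1 was lower, the other changed by -0.06, and the mean over both was not called. Kcnn2 read 8.57, 9.04 and 8.54 against 8.18, 8.60 and 8.49 at 3 days and 8.02, 8.92 and 8.86 against 8.65, 8.62 and 9.41 at 7 days, with overlap at both days and differences of -0.29 and 0.29 (SE 0.26, limma, adjusted p = 0.529 and 0.482).

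Kcnt2 encodes a sodium-activated channel (Slick). It read 5.11, 4.95 and 4.67 against 4.97, 4.35 and 5.01 at 3 days and 4.92, 4.41 and 4.78 against 5.76, 5.16 and 5.29 at 7 days, all of them dim. The groups overlapped at 3 days (-0.14) and were apart at 7 days (0.70, SE 0.21, limma, adjusted p = 0.028). The call of Kcnt2 was lost without control replicate 2 (0.56, adjusted p = 0.115) or ouabain replicate 1 (0.53, adjusted p = 0.117) of 7 days. The related Kcnt1 was not called on the probe set used, while its other 2 probe sets were lower at 3 days.

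**Figure D4:**
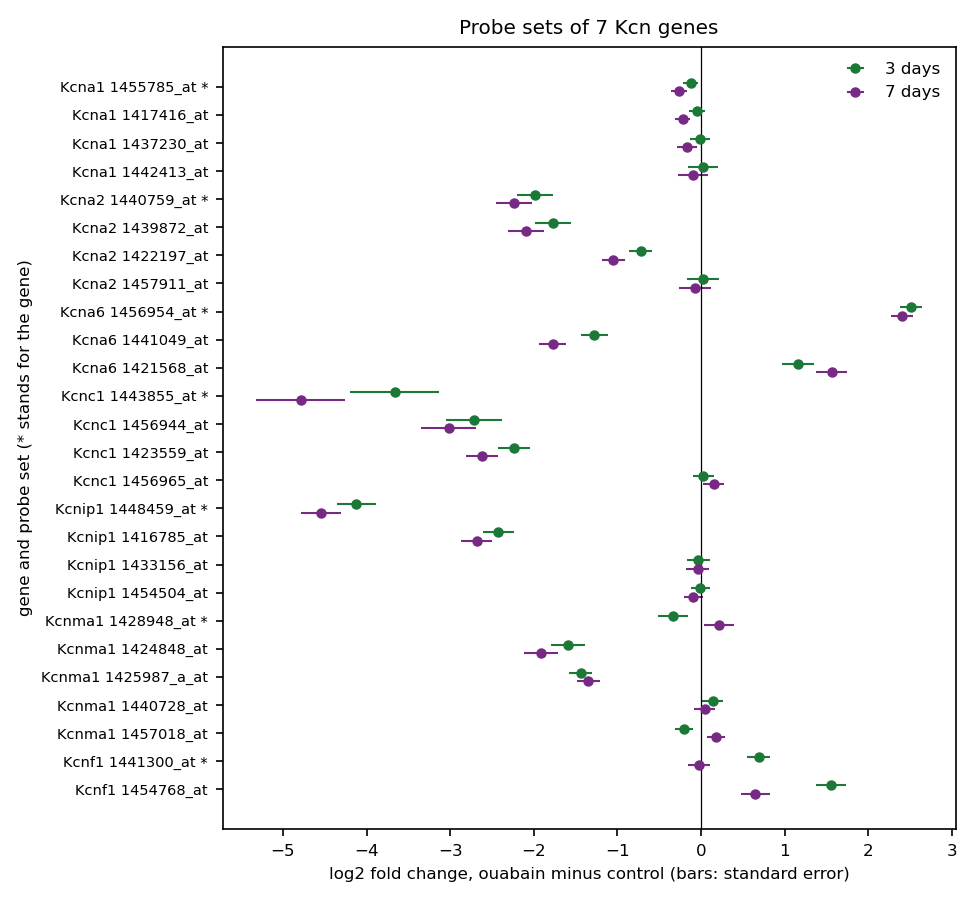
Log2 fold change of ouabain against control (horizontal axis, with the standard error as bars) for each probe set of 7 Kcn genes (vertical axis), at 3 days in green and 7 days in purple, with a star at the probe set that stands for the gene. The 4 probe sets of Kcna1 lie near 0, those of Kcna6 point in opposite directions, and 2 of the 5 of Kcnma1 lie well below 0.

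Of the 46 genes with more than 1 probe set, 11 were called at 3 days with at least 1 probe set that did not give the same call, and 9 at 7 days. In 6 genes the probe set used was not called at a day on which another probe set was, and these were Kcnd1, Kcnf1, Kcnj3, Kcnj9, Kcnma1 and Kcnt1. The probe sets of a gene can report different ends or splice forms of its transcript, and their levels were not set against each other.

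The noncoding transcripts numbered 3, namely Kcnq1ot1, Kcnmb4os1 and Kcnmb4os2, and none was called. Kcnq1ot1, the long antisense transcript of the imprinted Kcnq1 locus, read 7.02, 6.65 and 6.96 against 6.65, 6.59 and 6.71 at 3 days and 6.31, 6.19 and 6.91 against 7.04, 7.04 and 6.61 at 7 days. Its groups overlapped at both days (-0.23 and 0.42, SE 0.18, limma, adjusted p = 0.463 and 0.113), and without control replicate 3 of 7 days the difference of that day was called (0.65, adjusted p = 0.00907).

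The responses at the days were set against each other next. Over the 84 genes the log2 fold changes of 3 and 7 days had a Pearson r of 0.92 and a Spearman rho of 0.61, where the values over all 18193 genes were 0.82 and 0.66. These are correlations across genes, which are not independent, and the arrays of the days were separate. Of the 16 genes that were lower at both days, 11 had the larger fall at 7 days, as had 777 of the 1165 genes lower at both days over the whole table. In the test of the difference itself 1 member passed, Kcnmb4 (1.19% of the 84), where 0.923% of all genes were lower and 0.247% higher, so the share of members was near that of all genes. For Kcnmb4 the 7-day change minus the 3-day change was -0.70 (limma, adjusted p = 0.0219). Without control replicates 2 or 3 of 3 days, ouabain replicate 2 of 3 days, control replicate 2 of 7 days, or ouabain replicates 1 or 2 of 7 days, the difference of Kcnmb4 was -0.71 to -0.68 and was not called (adjusted p = 0.0527 to 0.0662). With the replicate number as a block it was not called either (adjusted p = 0.0768). At an unadjusted p under 0.05 there were 13 members (15.5%), where the share of all genes was 16.1%. Of the 8 genes called at a single day, Kcnf1, Kcnj13, Kcnj16, Kcnk5 and Kcnt2 were among the 13, and none passed the adjusted test of the day difference.

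**Figure D5:**
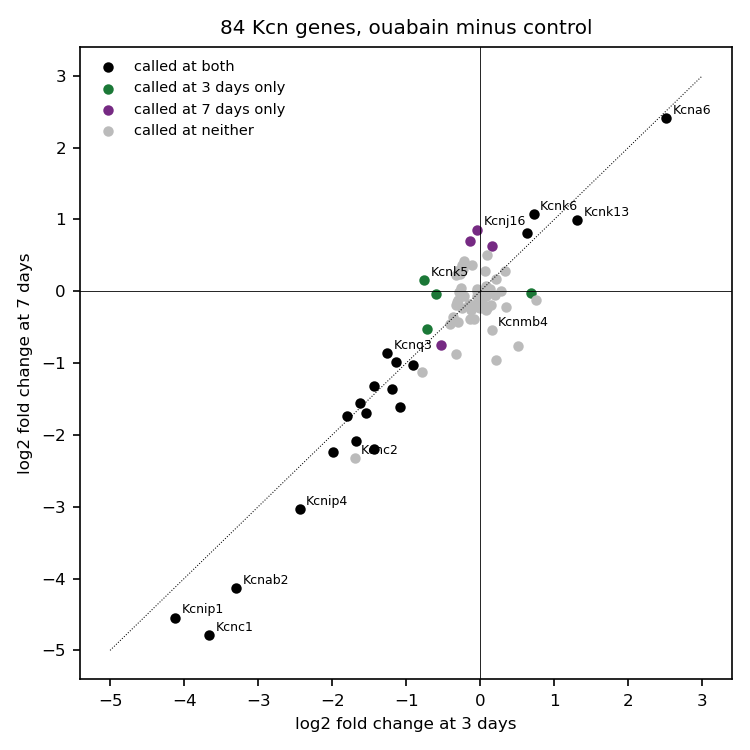
Log2 fold change at 7 days (vertical axis) against that at 3 days (horizontal axis) for the 84 Kcn genes, with colours for the days at which a gene was called and a dotted line where both days are equal. Kcnip1, Kcnc1, Kcnab2 and Kcnip4 lie lowest on both axes, and Kcna6 lies alone at the upper right.

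The controls of 7 and 3 days were compared in the same way, and limma called none of the 84 members between them, where 0.0165% of all genes were called. At an unadjusted p under 0.05 there were 6 (7.14%), where the share of all genes was 7.93%.

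Array replicate 1 of the ouabain group was the nearest to the controls in 15 of the 19 lower members at 3 days and in 10 of 17 at 7 days. Over all lower genes it was the nearest in 80.2% at 3 days and 49.3% at 7 days.

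Genes without a Kcn symbol that work beside potassium channels were read from a list of 26, of which 22 were measured, 18 for proteins that bind or place the channels and 4 for HCN cation channels and chloride cotransporters. Of the 22, 13 were lower at 3 days and 12 at 7 days, and none was higher, beside 8.06% and 8.2% of all genes lower. The median log2 fold change of the 22 was -0.75 at 3 days and -0.85 at 7 days. Of the 18 alone 12 and 11 were lower, with medians of -1.09 and -0.91, and the remaining gene counted was the cation channel Hcn2 (-0.67 and -0.92). The adhesion proteins Cntnap2 and Cntn2, which cluster Kv1 channels beside the nodes, changed by -1.31 and -0.80 at 3 days and by -1.26 and -0.77 at 7 days. Adam22 and Epb41l3, from the same axonal sites, changed by -1.46 and -1.32 at 3 days.

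The scaffold Dlg2 changed by -2.54 and -2.19, and the secreted protein Lgi3 by -3.02 at both days. Adam23, a receptor of Lgi proteins, changed by -2.68 and -3.58. Dpp6, a transmembrane partner of Kv4 channels, changed by -1.63 and -2.26, and Abcc8, the sulfonylurea receptor that pairs with Kcnj11, by -2.05 and -2.40. Kcnj11 itself was not called (0.02 and -0.16, SE 0.10). Amigo1 and Dlg4 were called at 3 days only, and Dpp10 at 7 days only. The Dpp10 groups overlapped at 7 days, with 5.89, 5.58 and 7.00 in the controls and 4.87, 5.61 and 4.86 after ouabain. The called genes of this list were lower beside the neuronal markers given above, whose part was not tested.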

How the data were processed

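Auditory nerve RNA of 4 groups, with 3 arrays in each, was analysed. The deposited values are log2 expression values that the authors made by RMA in the Affymetrix Expression Console (background correction, quantile normalization, summary of probe sets), with detection calls by MAS5. Versions and the genome build are not given in the sources used here. For RNA input the methods state 50 ng while the labels state 100 ng. No column lacked a sample (0), and no column of the authors' own comparisons was present. The number of arrays limits the precision.

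The 64 control probe sets among the 45101 did not enter, and 932 with several symbols and 9160 with none entered the test but stood for no gene. All 84 members matched RefSeq by Entrez identifier. Group means were fitted over all 12 arrays with limma 3.58.1 in R 4.3.3, and p-values were adjusted by Benjamini-Hochberg over 45037 probe sets. The script was tested on simulated data. Python 3.11.15 made the summaries and figures.

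Values of every array are given for up to 4 called genes of each family with the largest change and no overlap, for called day differences, for textbook genes of the cochlea and for the brightest member of each family. Families follow the symbol, with the noncoding transcripts apart. Members and lists were chosen with earlier results of these data known. Alternatives covered the methods' t-test with equal and unequal variances, fits by day, a replicate block, fold thresholds, a filter on dim probe sets, other scalings, moderation and weights, each array left out, and other choices of probe set.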

Additional observations from a re-analysis of the deposited data

Results flagged for a closer look

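The change of Kcnmb4 after ouabain differed between the days by -0.70 on the log2 scale (7-day minus 3-day log2 fold change), the single Kcn gene for which the test of that difference passed (limma, adjusted p = 0.0219). The call was lost in 8 of 23 other settings, among them the replicate block (adjusted p = 0.0768), and 1 of 84 members (1.19%) is near the 0.923% of all genes whose difference was lower.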

How the results depend on the processing

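Counts of called members kept within 1.5 times of those reported under most alternatives. Apart from fits without 1 array, the exceptions at 3 and 7 days were the methods' t-test with equal variances and adjusted p (3 and 2 higher), the t-test with unequal variances and adjusted p (2 lower and 1 higher, then 6 lower and 1 higher) and a fold above 2 (2 and 2 higher), and the count of day differences was 0 with that fold and with the replicate block. Leaving out 1 array gave 16 to 20 lower and 3 to 6 higher members at 3 days, 17 to 21 lower and 4 to 9 higher at 7 days, and 0 to 1 day differences. Of these, over 1.5 times apart from the reported counts were the higher members without ouabain replicate 3 of 3 days (3) and without control replicate 1 of 7 days (4), and the day differences without any of 6 single arrays (0). No member was called between the controls in any of these settings. Among lower genes, the t-test with equal variances and adjusted p lost Kcnip2 and Kcnk10 at 7 days and Kcnip4, Kcnq3 and Kcnn1 at 3 days. The cause of these shifts was not tested.

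With the replicate number as a block, 19 members were lower and 5 higher at 3 days, of which 19 and 4 were shared with the reported calls, 18 were lower and 7 higher at 7 days, of which 17 and 7 were shared, and 0 passed for the day difference (Kcnmb4, adjusted p = 0.0768). The mean of the group was taken from each array, and the remainders of control and ouabain arrays were correlated over all probe sets. Arrays of equal number correlated at 0.334, 0.0892 and 0.177 at 3 days and at 0.277, 0.155 and 0.0189 at 7 days. Arrays of different number correlated at -0.334 to 0.152, and 10 of 12 arrays correlated best with their own number. The remainders of a group cancel by construction. Positive values for equal numbers therefore tend to go with negative ones elsewhere, and the correlations are not independent. These values and the shared sample codes hint at pairs. All 6 correlations of equal number were positive, with 2 of them under 0.1. No source states that equal numbers mark the same mice, so the fit without the block was kept. The block changed 4 calls (Kcnj15 at 3 days and the Kcnmb4 day difference lost, Kcnn4 at 3 days and Kcnc2 at 7 days gained).

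For single genes at single days, 1938 of 2067 values stayed on the same side of the threshold, of which 22 uncalled values changed sign, 114 lost and 13 gained a call, and 2 turned direction. With the probe set of largest standard deviation, Kcnma1 at 7 days became -1.92 and Kcnf1 at 7 days became 0.65, both called. The setting without ouabain replicate 1 of both days was chosen after seeing the data. With 3 arrays in a group and no probe-level signal used here, a missed call is no evidence of an equal level, and dim probe sets understate changes.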
